A study of Homo sapiens with 2 samples.

Results

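The lung lineage and surfactant genes were 10 genes chosen by symbol, of 19198 genes with a usable name, and all 10 had a value in both libraries. They comprise 4 transcription factors that set up lung epithelium (NKX2-1, FOXA1, FOXA2 and GATA6) and 6 products of alveolar or airway epithelium (SFTPA1, SFTPB, SFTPC, SFTPD, NAPSA and SCGB1A1). mRNA was sequenced from cultures labelled A549, the name of an established line of human lung adenocarcinoma, and most of the A549 markers checked below went against this label. One culture, A549-NICD1, carried extra NICD1, the part of the NOTCH1 receptor that is cut free and enters the nucleus, and the other, A549-Vector, was its vector control. The study's methods place the NICD1 reading frame in a lentiviral vector, and whether the sequenced cultures were clones or pools is not given in the sources used here. Each group had 1 library, so the differences below compare these libraries, have no replicate check and carry no p-value. The question behind the comparison was which genes respond to NICD1.

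Surfactant is the film of lipid and protein that keeps alveoli open, and it is made by alveolar type 2 cells. NKX2-1 is the factor that marks lung and thyroid endoderm, FOXA1 and FOXA2 are pioneer factors that open chromatin in endoderm, GATA6 is a zinc finger factor of early endoderm and lung epithelium, and these factors act together on the promoters of surfactant genes. In the airway, Notch signaling is known to favor secretory club cells, whose main product is SCGB1A1, over ciliated cells.

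The deposited values are treated as FPKM, reads scaled to the length of the gene and to the sequencing depth. Whole reads could be recovered from them, at depths of 48528434 reads in A549-NICD1 against 48602848 in A549-Vector. Reads of single genes are known up to a whole-number factor, which leaves the ratio between the libraries as it is. Intervals and limits below that use the reads themselves do depend on this factor. NOTCH1 stood at 2865 FPKM in the library labelled A549-NICD1 and at 5.40 FPKM in A549-Vector, the direction that the labels give. The cell line label was checked against marker lists drawn from general knowledge. They were written with earlier results of these data known, so this check was not independent of the data. Of 20 genes listed for A549, 7 reached 1 FPKM in both libraries and 12 were below 1 FPKM in both, with KRT7 and KRT19, keratins of lung adenocarcinoma, listed at 0 in both. A second list held 12 markers of HEK293, a line from embryonic kidney, and 11 of them reached 1 FPKM in both. Over all genes, 62.8% reached 1 FPKM in both. The 2 highest of the first list were KRT8, at 176 FPKM in A549-NICD1 and 85.9 in A549-Vector, and KRT18, at 130 and 73.1. The 2 highest of the HEK293 list were CDKN2A, at 138 and 139 FPKM, and IGF2BP1, at 77.6 and 84.1. Most A549 markers thus went against the label, while 11 of 12 HEK293 markers reached 1 FPKM in both libraries. Which line the cultures came from was not tested further, and the libraries are named here by their labels only.

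SFTPA1 and SFTPA2 lie near each other on chromosome 10 and encode the nearly identical chains of surfactant protein A. The 250 bases before the start that RefSeq annotates for each gene are shown because they hold the letters that NKX2-1 and FOXA factors are known to bind, while both genes had almost no reads. They are read on the strand of the gene, in GRCh38.p14, from chr10:79610689-79610938 (plus strand) for SFTPA1 and from chr10:79560408-79560657 (minus strand) for SFTPA2. Capitals mark CTCAAG and GTAAACA, which is TGTTTAC read on the other strand.

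SFTPA1: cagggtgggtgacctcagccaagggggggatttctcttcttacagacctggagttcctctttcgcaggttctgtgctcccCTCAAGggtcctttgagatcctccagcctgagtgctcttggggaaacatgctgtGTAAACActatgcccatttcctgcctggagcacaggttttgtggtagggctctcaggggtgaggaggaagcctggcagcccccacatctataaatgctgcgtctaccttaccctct
SFTPA2: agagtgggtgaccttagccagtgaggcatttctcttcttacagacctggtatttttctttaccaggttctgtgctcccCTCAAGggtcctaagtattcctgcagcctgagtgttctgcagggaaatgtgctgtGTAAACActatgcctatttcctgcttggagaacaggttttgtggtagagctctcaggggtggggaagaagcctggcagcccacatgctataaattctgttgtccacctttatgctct

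The windows were the same at 83.9% of 255 aligned positions, and the transcripts at 89.4% of 2248. CTCAAG began 170 bases before the start in SFTPA1 and 172 bases before it in SFTPA2, and the FOXA letters began 116 and 117 bases before it. The next windows are those of NAPSA, the only one with the letters of RBPJ, the DNA-binding partner of NICD1, and of SFTPD. SFTPD was the member lower in A549-NICD1 by more than 2 on the log2 scale. Its value rested on 3 reads against 20, and with 5 reads added it was -1.59. The windows come from chr19:50369303-50369552 and chr10:79949106-79949355, both on the minus strand. Capitals mark TTCCCAC, which is GTGGGAA read on the other strand, and CTTGAG, which is CTCAAG. The window of SFTPD held none of the letters searched and has no capitals.

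NAPSA: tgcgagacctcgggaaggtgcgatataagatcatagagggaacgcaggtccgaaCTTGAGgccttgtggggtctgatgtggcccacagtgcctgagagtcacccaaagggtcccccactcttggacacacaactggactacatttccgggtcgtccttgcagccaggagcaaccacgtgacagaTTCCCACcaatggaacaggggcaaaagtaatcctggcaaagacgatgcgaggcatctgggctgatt
SFTPD: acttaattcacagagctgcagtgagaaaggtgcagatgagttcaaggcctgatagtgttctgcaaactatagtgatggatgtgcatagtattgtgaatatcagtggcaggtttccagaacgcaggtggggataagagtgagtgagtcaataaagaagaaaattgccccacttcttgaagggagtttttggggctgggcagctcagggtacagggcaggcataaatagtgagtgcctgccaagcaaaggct

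The window of NAPSA lies before a RefSeq start that is 3472 bases from the nearest transcript start of NAPSA in GENCODE 29, whereas those of SFTPA1, SFTPA2 and SFTPD lie 0, 5 and 2 bases from one. Such windows were given for 7 of the 10 members. GTGGGAA, searched on both strands, was in 1 of the 7 and in 5.43% of 35116 promoters of the same length. CTCAAG or CAAGTG, taken for NKX2-1, was in 3 of the 7 (SFTPA1, NAPSA and FOXA1) and in 18.3% of all. TGTTTAC or TGTTTGC or TATTTAC, taken for FOXA, was in 3 of the 7 (SFTPA1, NKX2-1 and FOXA1) and in 8.27% of all. AGATAA or TGATAA, taken for GATA factors, was in 0 of the 7 and in 14.6% of all. None of these letters was in the windows of SFTPB, SFTPD and GATA6, but only 1 annotated start of each gene was searched. The starts used for GATA6 and FOXA1 lie 146 and 139 bases from the nearest transcript start in GENCODE 29. A match of letters does not show that a factor was bound.

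The lineage factors other than FOXA2 reached 1 FPKM in both libraries, and the surfactant genes were nearly absent. At a level of 1 FPKM or more in both libraries were 3 of the 10 members (GATA6, FOXA1 and NKX2-1), against 62.8% of all genes. Another 6 were below 1 FPKM in both, and SCGB1A1 was above it in A549-NICD1 only. GATA6 had the highest level, at 23.0 FPKM in A549-NICD1 and 23.8 in A549-Vector, which placed it above 80.8% and 81.0% of all genes or level with them. FOXA1 came next, at 8.85 and 11.5 FPKM, and then NKX2-1, at 3.74 and 4.67 FPKM, near the middle of all genes (percentiles 48.1 and 49.9). FOXA2 was at 0.537 and 0.860 FPKM, so that FOXA1 stood 16.5 times above it in A549-NICD1 and 13.4 times in A549-Vector.

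**Figure D1:**
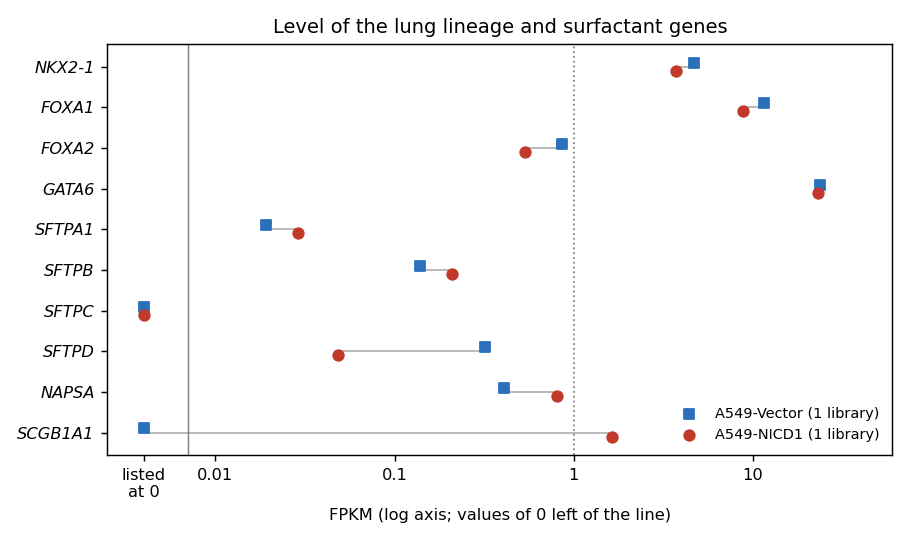
Level of each of the 10 genes in FPKM, on a log axis, in the A549-Vector library (squares) and the A549-NICD1 library (circles), 1 library each and no error bars. GATA6, FOXA1 and NKX2-1 lie right of the dotted line at 1 FPKM in both libraries, SFTPC is listed at 0 in both, and SCGB1A1 lies at 0 in A549-Vector and at 1.64 FPKM in A549-NICD1.

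The products were all below 2 FPKM in both libraries, in an order that rests on few reads, and SCGB1A1 and NAPSA lay above FOXA2 in A549-NICD1. NAPSA, the aspartic protease napsin A that helps to process surfactant protein B, was at 0.809 FPKM in A549-NICD1 and 0.411 in A549-Vector. SFTPB, whose product organizes surfactant lipid, was at 0.209 and 0.139 FPKM. SFTPD, a collectin of innate defense, was at 0.0482 and 0.321 FPKM. SFTPA1, the other member that encodes a collectin, was at 0.0288 and 0.0192 FPKM, the level of 3 and 2 reads. SFTPC, whose small hydrophobic product is the most specific mark of alveolar type 2 cells, was listed at 0 in both libraries, where 3 reads would be 0.0591 and 0.0590 FPKM over a transcript of 1046 bases. SCGB1A1 was at 1.64 FPKM in A549-NICD1 and listed at 0 in A549-Vector, where 3 reads would be 0.137 FPKM. In cultures measured in bulk, fewer cells that express a gene and less RNA in each cell cannot be told apart.

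Between the libraries, the lineage factors differed by less than 1 on the log2 scale. Before each ratio was formed, 0.5 reads were added and the depths were adjusted so that a trimmed average of log ratios came to 0. The added reads pull the differences of genes with few reads toward 0, yet large differences are more frequent among such genes. Above a log2 fold change of 2 were 3.82% of genes without a read filter, against 0.270% with at least 100 reads summed. The 95% Clopper-Pearson intervals given with the differences cover counting error only. Across the 15314 genes that reached 10 reads in either library, the median was -9.6e-05 and the quartiles were -0.16 and 0.15. GATA6 (ENSG00000141448.8, chr18:22169443-22202528, plus strand) had 4218 reads in A549-NICD1 against 4362 in A549-Vector, with log2 fold change 0.01 (interval -0.05 to 0.07). With scaling by depth alone its value was -0.05, so no direction can be given.

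FOXA1 (ENSG00000129514.5, chr14:37589984-37596059, minus strand) had 1452 reads in A549-NICD1 against 1889 in A549-Vector, with log2 fold change -0.32 (interval -0.42 to -0.22). NKX2-1 (ENSG00000136352.17, chr14:36516392-36521149, minus strand) had 410 and 513 reads, with log2 fold change -0.26 (interval -0.46 to -0.07). FOXA2 (ENSG00000125798.14, chr20:22581005-22585455, minus strand) had 63 and 101 reads, with log2 fold change -0.62 (interval -1.10 to -0.15). All of these 3 factors were lower in A549-NICD1, with counting intervals below 0. The 4 scalings, with factors from 0.962 to 1, differ too little to change these signs. How much they vary between cultures of 1 group is unknown.

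**Figure D2:**
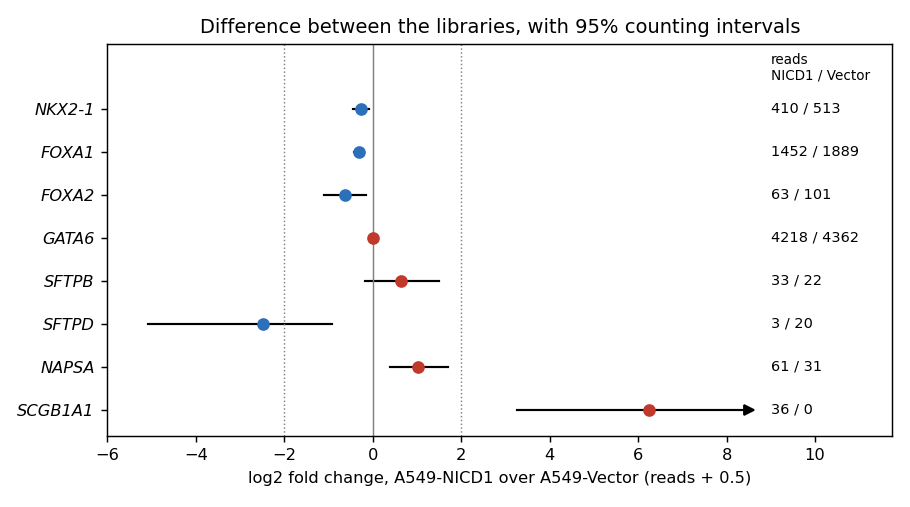
Log2 fold change of A549-NICD1 over A549-Vector on reads plus 0.5 for the 8 members with more than 3 reads in a library, with 95% Clopper-Pearson intervals (bars, counting error only) and the reads of both libraries at the right. FOXA1, NKX2-1 and FOXA2 lie left of 0, GATA6 at 0.01, and the interval of SCGB1A1 has no upper end because it had 0 reads in A549-Vector.

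The products differed more, and in both directions. SCGB1A1 (ENSG00000149021.6, chr11:62405103-62423195, plus strand) had 36 reads in A549-NICD1 against 0 in A549-Vector. Set against a floor of 3 reads in the A549-Vector library it was at least 12.5-fold higher, and the counting interval began at 9.65-fold. Genes with 0 reads in A549-Vector and at least 10 in A549-NICD1 numbered 68, and SCGB1A1 ranked 4 among them by reads. Genes with the opposite pattern numbered 14.

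NAPSA (ENSG00000131400.7, chr19:50358477-50365830, minus strand) had 61 reads in A549-NICD1 against 31 in A549-Vector, a ratio of 2.05 (interval 1.31 to 3.27). Its gene lies within the annotated span of NR1H2 on the opposite strand, which had 1028 and 1207 reads, and the study describes its sequencing as strand-specific, while the strand setting of the counting is not given in the sources used here. FOXA1 likewise overlaps TTC6 on the opposite strand, which had 205 and 181 reads. Of the 100-base windows of the NAPSA transcript, 3.45% also occur in NAPSB.

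SFTPB (ENSG00000168878.16, chr2:85657314-85668741, minus strand) had 33 reads in A549-NICD1 against 22 in A549-Vector, a ratio of 1.56 whose interval of 0.884 to 2.81 included 1. SFTPD (ENSG00000133661.15, chr10:79937740-79982614, minus strand) had 3 reads in A549-NICD1 against 20 in A549-Vector, a ratio of 6.40 in favor of A549-Vector (interval 1.90 to 33.6). With so few reads neither difference is precise, and SFTPD was 1 of 23 genes with a log2 fold change below -2 among the 453 genes with 18 to 28 reads in both libraries together (5.08%). SFTPA1 (ENSG00000122852.14, chr10:79610939-79615455, plus strand) had 3 reads in A549-NICD1 against 2 in A549-Vector, and its near copy SFTPA2 had 3 and 1, so no fold is given. Which of the pair a read came from is uncertain, since 9.30% of the windows of SFTPA1 occur in SFTPA2, and summed over both genes there were 6 and 3 reads. SFTPC had no reads to compare.

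At least 10 reads in a library were found for 8 of the 10 members. Of these, 1 had a log2 fold change above 2 (SCGB1A1) and 1 had one below -2 (SFTPD), against 1.64% and 0.562% of all genes that passed this filter. Both members passed it through 1 library only, and neither was counted when at least 10 reads were required in each library. With 5 reads added in place of 0.5, SFTPD was at -1.59. Above 1 were 2 of the 8 (SCGB1A1 and NAPSA) and below -1 was 1, against 4.39% and 2.21% of all genes. With scaling by depth alone NAPSA was at 0.97, so that 1 was above 1. Members with at least 10 reads in each library numbered 6 and had a median log2 fold change of -0.13.

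**Figure D3:**
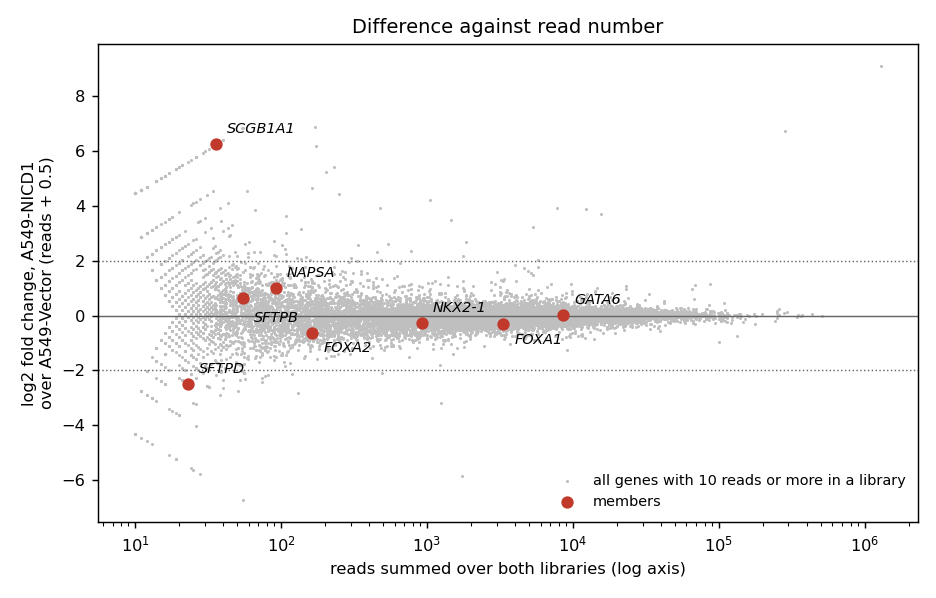
Log2 fold change of A549-NICD1 over A549-Vector (reads plus 0.5) against the reads summed over both libraries (log axis), with 1 grey point for each of the 15314 genes that passed the read filter and the 8 members that passed in red. The spread of all genes widens toward few reads, where SCGB1A1 and SFTPD lie beyond the dotted lines at 2 and -2, while NKX2-1, FOXA1 and GATA6 lie close to 0.

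Genes that lie nearest to the members were compared for position. The nearest 2 genes on each side came to 37 genes that are not members, of which 31 passed the filter, with a median log2 fold change of 0.00 (0.0035), 1 above 1 and 1 below -1. Around NKX2-1 the neighbours differed in both directions and by less than 1 on the log2 scale, with SFTA3 at 2.46 FPKM in A549-NICD1 and 1.94 in A549-Vector, NKX2-8 at 2.03 and 2.64, PAX9 at 3.32 and 4.01 and MBIP at 19.5 and 19.9. SCGB1A1 lies between ASRGL1, at 22.2 and 24.6 FPKM, and AHNAK, at 15.8 and 23.2 FPKM. On the side of ASRGL1 the next gene was the secretoglobin SCGB1D4, with 0 reads and 1 read. Next to NAPSA, POLD1 was at 41.7 and 38.8 FPKM, and SPIB, a factor of lymphoid cells, had 65 and 25 reads, with log2 fold change 1.42 (interval 0.75 to 2.16). SSTR1, which lies 612 kb from FOXA1, had 5 and 18 reads, with log2 fold change -1.69 (interval -3.57 to -0.31).

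The relatives of the members were taken family by family. Of the 9 FOXA and GATA genes, 7 reached 1 FPKM in both libraries, against 62.8% of all genes. None lay beyond 1 on the log2 scale. GATA2, a factor of blood and endothelium, was at 18.3 FPKM in A549-NICD1 and 16.9 in A549-Vector, and GATA4, a factor of heart and foregut, was at 16.1 and 17.0. FOXA3, the remaining FOXA factor, was at 4.66 and 3.32 FPKM, with log2 fold change 0.55 (interval 0.34 to 0.76), opposite in sign to FOXA1 and FOXA2. Of the 7 NKX2 genes, 6 were at 1 FPKM or more in both, and NKX2-1 was not the highest. NKX2-5, the cardiac member, was at 38.0 and 32.3 FPKM, and NKX2-4 was at 5.57 and 4.93.

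Of the 10 secretoglobin genes, 0 reached 1 FPKM in both libraries, against 62.8% of all genes, and 3 were listed at 0 in both. Besides SCGB1A1 only SCGB2B2 had 10 reads in a library, with 54 in A549-NICD1 and 25 in A549-Vector, with log2 fold change 1.15 (interval 0.46 to 1.92). SCGB3A1, another airway secretoglobin, had 5 and 0 reads. Of the 7 collectin genes, COLEC12 was highest, at 12.0 and 13.8 FPKM, and COLEC11 was at 1.87 and 1.47. Of the 10 aspartic proteases, CTSD, the lysosomal cathepsin D, was highest, at 92.7 and 91.1 FPKM, and BACE1 was at 7.84 and 7.78. Among the 4 that passed the filter, 1 (NAPSA) was above 1 on the log2 scale, against 4.39% of all genes. With scaling by depth alone NAPSA was at 0.97.

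Other genes of the lung were taken from lists written with earlier results of these data known. Of 26 further lung transcription factors and cofactors, 16 (61.5%) reached 1 FPKM in both libraries, near the 62.8% of all genes. Among the 21 that passed the filter, 3 were above 1 on the log2 scale and 1 was below -1, against 4.39% and 2.21% of all genes. ETV5, an ETS factor of alveolar type 2 cells that acts downstream of receptor tyrosine kinases, had 263 reads in A549-NICD1 against 69 in A549-Vector, with log2 fold change 1.98 (interval 1.60 to 2.39). ETV4, a close relative, had 211 and 92 reads, at 1.25 (interval 0.90 to 1.63). MYCN, which is active in the tips of the growing lung, had 76 and 17 reads, at 2.19 (interval 1.45 to 3.07). LMO3, a known target of NKX2-1 in lung adenocarcinoma, had 85 and 198 reads, at -1.16 (interval -1.55 to -0.79). The 2 highest of the list were ID2, at 87.4 and 103 FPKM, and SOX2, at 33.9 and 48.6.

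Of 17 further alveolar type 2 genes, 6 reached 1 FPKM in both libraries, against 62.8% of all genes. Another 11 were below 1 FPKM in both. The 2 highest by the mean of both libraries were LPCAT1 and ABCA3, although in A549-NICD1 the protease CTSH, at 11.6 FPKM, lay above ABCA3. LPCAT1, which makes the main surfactant phospholipid and is also used outside the lung, was at 46.4 FPKM in A549-NICD1 and 70.2 in A549-Vector, with log2 fold change -0.54 (interval -0.58 to -0.50). ABCA3, the transporter that loads lipid into lamellar bodies, was at 9.72 and 13.7 FPKM, at -0.44 (interval -0.51 to -0.37). SLC34A2, the phosphate transporter of these cells, had 12 and 2 reads, with log2 fold change 2.38 (interval 0.48 to 5.84). It passed the filter through A549-NICD1 only. Among the 11 that passed the filter, 4 were higher and 7 lower in A549-NICD1, and with scaling by depth alone 3 were higher and 8 lower. Over all 15314 genes that passed, 7656 were higher and 7658 lower, or 6092 and 9222 with scaling by depth alone, so these counts lie near those of all genes.

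Of 12 alveolar type 1 genes, 9 reached 1 FPKM in both libraries, against 62.8% of all genes. Among the 11 that passed, 10 were lower in A549-NICD1 under both scalings, with a median log2 fold change of -0.25. Of all 15314 genes that passed, 7658 were lower, or 9222 with scaling by depth alone. Some of the 10 had counting intervals that included 0, IGFBP2 among them (-0.17 to 0.002), and so did the 1 that was higher. CAV1, the coat protein of caveolae, had 257 and 604 reads, with log2 fold change -1.17 (interval -1.39 to -0.96). PDPN, a glycoprotein of flat alveolar cells, was at 19.1 and 21.1 FPKM, and IGFBP2 was at 36.2 and 39.9. Several of these genes are widely used outside the lung.

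Airway genes were mostly below 1 FPKM, whereas 62.8% of all genes reached it in both libraries. Of 15 secretory genes 1, FOXA3, was at 1 FPKM or more in both libraries, 5 were listed at 0 in both, and 4 passed the filter. SPDEF, the factor that drives goblet cells, had 28 reads in A549-NICD1 against 2 in A549-Vector, with log2 fold change 3.57 (interval 1.88 to 6.98). PIGR, the receptor that carries immunoglobulin across epithelium, had 11 and 2 reads, at 2.26 (interval 0.32 to 5.73). Of 18 ciliated cell genes, 7 reached 1 FPKM in both libraries, led by TP73, at 7.18 and 8.23 FPKM, and RFX2, at 4.90 and 5.94. Among the 16 that passed, DNAI2 (13 and 2 reads) and PIFO (55 and 21 reads) were above 1 on the log2 scale. Over all genes that passed, 4.39% were above 1. SPDEF, PIGR and DNAI2 passed through A549-NICD1 only. Of the 16, 8 were higher and 8 lower, or 6 and 10 with scaling by depth alone, close to the shares over all genes under each scaling. Of 9 basal cell genes 2 were at 1 FPKM or more in both, and the keratins KRT5 and KRT14 were listed at 0. NGFR, a neurotrophin receptor of basal and neural crest cells, was at 9.56 FPKM in A549-NICD1 and 1.55 in A549-Vector, with log2 fold change 2.68 (interval 2.49 to 2.88), and DLK2 was at 4.43 and 3.62.

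Genes of gut and liver endoderm, which share FOXA and GATA factors with the lung, reached 1 FPKM in both libraries for 5 of 20. Over all genes the share was 62.8%. CDX2, the intestinal homeobox factor, was at 20.7 and 23.9 FPKM, with log2 fold change -0.16 (interval -0.21 to -0.10). TFF1, a trefoil peptide of gastric mucosa, had 172 reads in A549-NICD1 against 2 in A549-Vector (interval of the log2 fold change 4.61 to 9.54). HNF4A, a liver and gut factor, had 16 reads in A549-NICD1 against 0 in A549-Vector. It was at least 5.55-fold higher against the floor of 3 reads, and the counting interval began at 4.02-fold. ALB, serum albumin, had 12 and 3 reads. TFF1, HNF4A and ALB passed the filter through A549-NICD1 only.

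**Figure D4:**
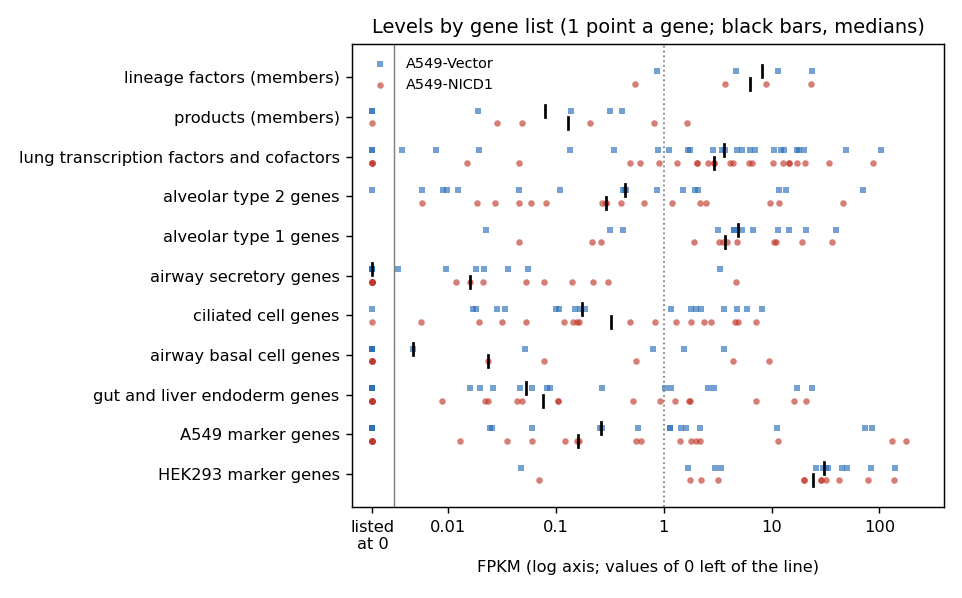
Level in FPKM (log axis, values of 0 left of the line) of every gene in each list, with 1 point a gene in A549-Vector (squares) and A549-NICD1 (circles) and the median of each list as a black bar. The member factors lie mostly right of the dotted line at 1 FPKM, with medians of 8.08 in A549-Vector and 6.29 in A549-NICD1, while the member products lie mostly left of it, with medians of 0.0791 and 0.129, and the HEK293 list has the highest medians, at 30.9 and 24.3.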

How the data were processed

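mRNA was sequenced in 1 library of A549-NICD1 and 1 of A549-Vector, grouped by their genotype labels. The authors deposited 1 value per gene for 19225 rows, treated as FPKM. The unit is not named in the sources used here and was read from the values. The submitters' processing notes name Bowtie2, HTSeq and hg38. The study describes strand-specific sequencing of polyA RNA. The versions, the annotation and the strand setting of the counting are not given in the sources used here. A total of 27 rows named by date numbers were left out.

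Whole reads were recovered from the values alone. Ratios between the libraries gave reads in lowest terms for 8857 genes. The largest depth at which reads over FPKM gave whole gene lengths for most genes was taken, and 69.8% were whole at it against 0.960% at 1.01 times that depth. Each gene's length was the multiple nearest to a GENCODE 29 transcript with a RefSeq partner. Recovered reads came to 109% of each depth, so the factor may be wrong for some genes. For such genes the counting interval, the read filter, the floor and the added reads would be affected.

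The depth of A549-NICD1 was scaled by 0.962, from log ratios averaged after trimming (30% of ratios and 5% of levels at each end). The pseudocount was 0.5 reads. A gene with 0 reads in 1 library was given a bound at 3 reads. Promoters were taken from RefSeq and gene positions from GENCODE 29, both on GRCh38, which is the build hg38. Python 3.11.15, numpy 2.4.6, scipy 1.17.1 and Biopython were used, and the steps were tested on simulated reads.

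The members and all lists were chosen with earlier results of these data known. Genes named are the members, NOTCH1, the nearest 2 genes on each side, and in each list the 2 highest and those beyond 1 on the log2 scale with at least 10 reads in a library. FOXA3 among its family, SCGB3A1, CTSH, KRT5, KRT7, KRT14 and KRT19 were named after their values were seen. Alternatives covered scaling, pseudocount, filter and threshold.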

Additional observations from a re-analysis of the deposited data

How the results depend on the processing

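Of 80 values recomputed under other settings, 61 stayed within the limits set for a change, which were the counting interval for a fold change and 1.5 times for a count. No paired analysis was possible because each group had 1 library, and for the same reason no library could be left out. With scaling by depth alone GATA6 went from 0.00996 to -0.046. A pseudocount of 5 reads gave 3.09 for SCGB1A1, against 6.25, and 0 members below -2. A pseudocount of 0.1 FPKM also gave 0 below -2. A pseudocount of 1 FPKM gave -0.33 for SFTPD, against -2.49, 0.38 for NAPSA, against 1.02, and 1.44 for SCGB1A1, and 0 members above 2 and 0 below -2. By construction these act most on genes with few reads.

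With at least 100 reads summed, with a mean level of 1 FPKM or above, and with at least 10 reads in each library, the last chosen after seeing the data, 0 members were above 2 and 0 below -2, since SCGB1A1 and SFTPD were no longer counted. The median of the members that passed, -0.13 over 8, was -0.29 over 4 with at least 100 reads summed, -0.26 over 3 with a mean level of 1 FPKM or above and 0.00996 over 9 without a filter. A fold threshold of 1 gave 2 members above it. Depth limits the products: 3 to 61 reads in A549-NICD1 and 0 to 31 in A549-Vector lay behind those with any read.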
